A study of Caenorhabditis elegans with 2 samples.

Results

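The ONECUT homeobox genes of C. elegans examined here are ceh-21, ceh-38, ceh-39, ceh-41, ceh-48 and ceh-49, which are 6 of the 19973 nuclear protein-coding genes of the annotation. They were chosen by family, with peaks at some of them already known in these data, so the peak values given here describe them and test nothing. For each gene, every peak whose summit lay in the gene body or within 5 kb of either end was taken from the main peak list and from the list of each replicate. Where a gene had none, the best entry of the pooled ranked list was taken in its place. RefSeq names ceh-38, ceh-48 and ceh-49 as One cut domain family members, while ceh-21, ceh-39 and ceh-41 carry only homeobox names there, so for these 3 the family label was not checked further.

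The peaks came from chromatin immunoprecipitation with an anti-GFP antibody in whole mid-stage embryos of strain OP785, aged 2 hours per the labels and obtained by egg bleaching. This strain carries the transgene wgIs785, in which T22C8.4, annotated by RefSeq as a C2H2-type domain protein, is fused to TY1, EGFP and 3xFLAG, together with unc-119(+) in the unc-119(tm4063) background. The labels give 1 group of 2 biological replicates, with no untagged strain and no second condition among the files used here. What can be set side by side is therefore genes, peak lists and replicates. Whole embryos were used, so the cell type behind a peak cannot be told.

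ONECUT proteins are transcription factors with a single cut domain followed by a homeodomain, both of which touch DNA. In vertebrates, ONECUT factors bind sites built around ATTGAT, and the related CUX factors bind sites built around ATCGAT. In the worm, ceh-39 is known as an X signal element, one of the X-linked genes whose dose represses the sex-determination switch xol-1, and CUT homeobox genes act together on genes that all neurons use. The cut and homeodomain genes ceh-41, ceh-21 and ceh-39 lie in 1 cluster on the X chromosome, while ceh-38, ceh-48 and ceh-49 lie on autosomes.

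In the main list of 2415 peaks, 3 of the 6 genes had a summit in the window, namely ceh-38, ceh-39 and ceh-21. Over all protein-coding genes the share was 22.2% (4428 of 19973). The 3 genes rested on 4 distinct peaks, because ceh-21 and ceh-39 shared one. Of the 4, the strongest alone lay at the 5' end of an ONECUT gene, that of ceh-38. The genes ceh-41, ceh-48 and ceh-49 had no main-list summit. Replicate 1's own list of 1629 peaks gave the same 3 genes, against 16.4% of all genes. Replicate 2's own list of 1319 peaks gave ceh-38 and ceh-39, against 13.5% of all genes. The main list and both replicate lists together held a summit at ceh-38 and ceh-39, against 11.1% of all genes. The conservative list, of 2326 peaks, held ceh-38, ceh-39, ceh-21 and ceh-49, against 21.5% of all genes. With 6 genes, 3 of them neighbours, these counts are not read as an excess over the shares for all genes.

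Each peak has a summit, a signal and a score. The signal is the peak caller's own value, which has no unit and is not scaled between lists, so a pooled value and a replicate value are not compared as levels. The score is derived from the irreproducible discovery rate (IDR), which measures how well a peak repeats between rankings; it is capped at 1000, and all peaks in the thresholded lists have at least 830. Read counts are not part of these lists, so the depth behind a peak is unknown.

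**Figure D1:**
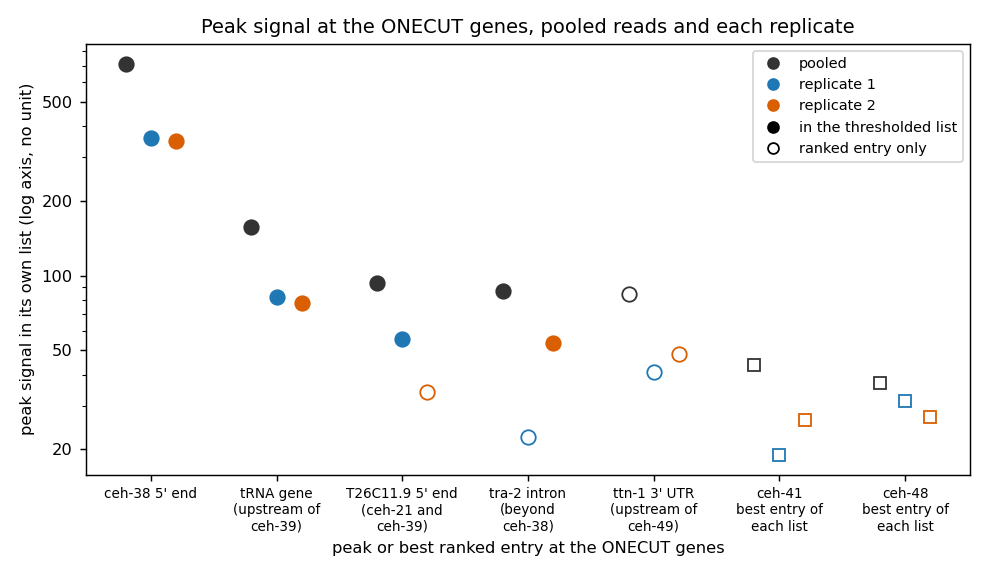
Peak signal (log axis, no unit) of the pooled reads (black), replicate 1 (blue) and replicate 2 (orange) at the 5 peaks of the ONECUT genes, and at the best ranked entry of each list for ceh-41 and ceh-48 (squares); filled symbols are in the thresholded list of that column. The ceh-38 peak stands highest, at 713 pooled, 359 in replicate 1 and 348 in replicate 2.

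The peak at ceh-38 (WBGene00000459, plus strand, chrII:6951526-6955409, ce11) was the strongest by far at any ONECUT gene. ceh-38 is the broadly expressed member of the family in worms. The peak covered chrII:6951581-6951851, 271 bp, with its summit at position 6951700 and a score of 1000. Its signal was 713 in the main list, where it ranked 13 of 2415, within the strongest 0.538% of the list. Its signal was 359 in replicate 1, with the summit at 6951703 and rank 14 of 1629. It was 348 in replicate 2, with the summit at 6951701 and rank 12 of 1319. The summits of the 3 lists thus lay within 3 bp of each other, and the replicate 1 to replicate 2 signal ratio was 1.03. Over the 2365 main-list peaks with an entry in both replicates the median ratio was 1.11, with a 5th to 95th percentile range of 0.623 to 1.93.

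The summit lay in the 5' UTR, 34 bp downstream of the nearest annotated ceh-38 transcript start and 174 bp downstream of the outermost one. The annotation gives ceh-38 24 transcripts. Of these, 8 start from 6 positions upstream of the summit, and the other 16 start from 5 positions 297 to 370 bp downstream of it. The first exon ends just after the summit, so the right part of the peak lay in the first intron of the upstream transcripts and upstream of the later starts. The divergent neighbour malt-1, the worm paracaspase gene, starts on the minus strand, and the gap between the 2 genes is 225 bp. The summit was 400 bp upstream of the nearest malt-1 start, so ceh-38 had the nearest 5' end. The 5-kb windows of 4 protein-coding genes held this summit, namely ceh-38, flcn-1, malt-1 and tra-2.

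The DNA of the ceh-38 peak is shown because it holds 4 matches to the words ATTGAT and ATCGAT, which were searched on both strands with overlapping matches counted. On the plus strand ATTGAT can also appear as ATCAAT, while the other word reads the same on both strands. These words came from an earlier count of words under the same peaks, so their presence there is a description. Both sequences are from the RefSeq genome of WBcel235, the assembly that ce11 names, on the plus strand, with matches in capitals. The first is 30 bases of the first exon, chrII:6951668-6951697, and the second is the 147 bases of the peak that lie in the first intron, chrII:6951705-6951851.
ceh-38 first exon: gtggccatcagtATCGATcggtgtctagtc
ceh-38 first intron: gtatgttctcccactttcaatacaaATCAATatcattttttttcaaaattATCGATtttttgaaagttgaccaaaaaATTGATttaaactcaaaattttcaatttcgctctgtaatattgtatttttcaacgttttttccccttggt

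The exonic ATCGAT began 20 bp before the summit. In the intron, ATCAAT began 30 bp after it, ATCGAT 55 bp after it and ATTGAT 82 bp after it. Thus 2 matches lay within 50 bp of the summit and 4 within 100 bp. In the whole main list, 429 of 2415 peaks (17.8%) had at least 4 matches within 100 bp, and the median was 1. Among the 242 strongest peaks, which include that of ceh-38, the share was 38%.

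The second main-list peak of the ceh-38 window lay far from the gene. Its summit, chrII:6959934 in the peak chrII:6959789-6960078, was 4525 bp beyond the 3' end of ceh-38 and inside an intron of tra-2, which encodes a membrane receptor of the sex-determination pathway. It was 2963 bp upstream of the nearest tra-2 start, and its signal was 87.1, rank 1687 of 2415. Replicate 2's list held it with a signal of 53.4 and a score of 1000. Replicate 1's list did not. Its ranked list had an entry inside the peak, with the summit at 6959905, a signal of 21.1 and a score of 103, and one that overlapped the left edge, with a signal of 22.4, a score of 95 and a summit at 6959701. The replicate 1 to replicate 2 ratio, taken with the higher of these signals, was 0.42, which was as far from the median ratio as that of 0.93% of main-list peaks. The peak scored 1000 in the main list but 75 in the ranked list that compares the 2 replicates. The conservative list did not hold this peak, and no ATTGAT or ATCGAT lay in the peak. The next main-list summit, just outside the window, was 5126 bp from ceh-38 and had a signal of 6.10.

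**Figure D2:**
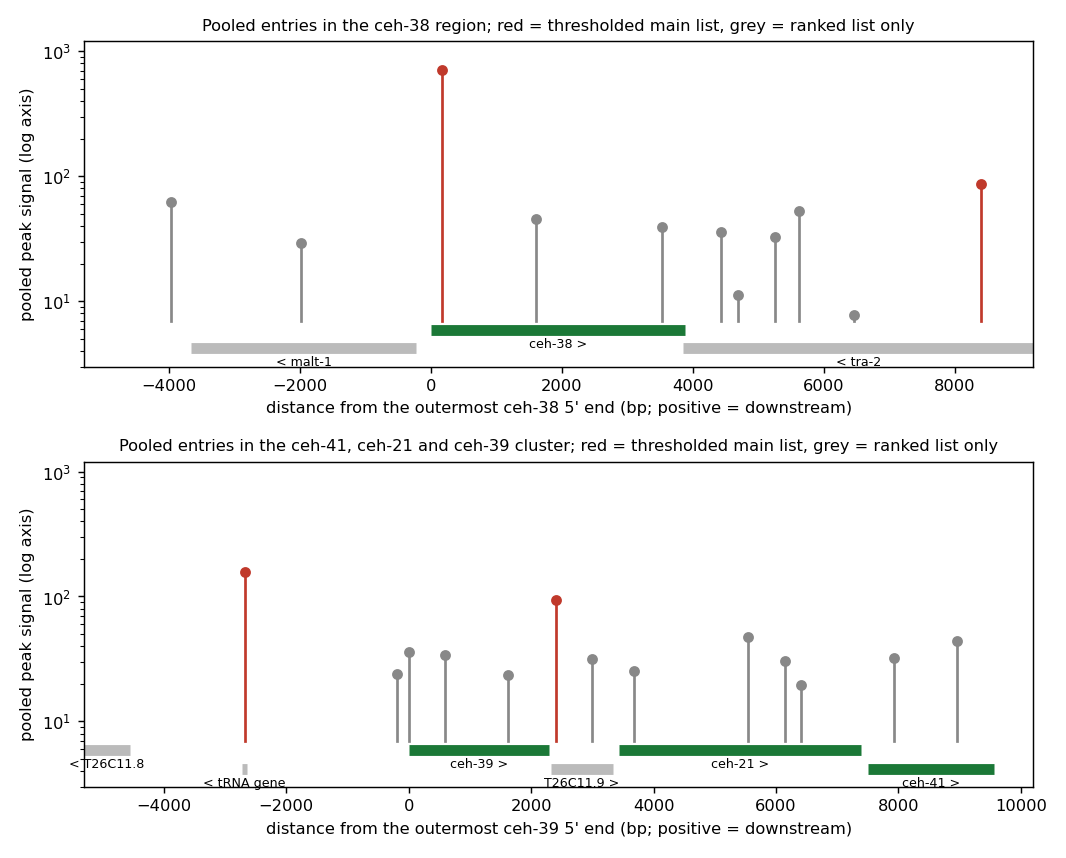
Pooled signal (log axis, no unit) of every pooled ranked entry in the windows of ceh-38 (top) and of the ceh-41, ceh-21 and ceh-39 cluster (bottom) against the distance in bp from the outermost ceh-38 or ceh-39 5' end; red entries are in the main list, grey ones only in the ranked list, green bars are ONECUT genes and arrows give the direction of transcription. The entry of 713 stands at the ceh-38 5' end, whereas the red entries of the X cluster, 157 and 93.6, lie at a tRNA gene and at T26C11.9.

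The X cluster spans chrX:1846608-1856172, 9565 bp, and its genes all read on the minus strand, in the order ceh-39, T26C11.9, ceh-21 and ceh-41 from 5' to 3'. The gaps between neighbours are short, from 24 bp between ceh-39 and T26C11.9 to 103 bp between ceh-21 and ceh-41. The stronger of its 2 main-list peaks, chrX:1858699-1858988, had its summit at 1858844, which is 2672 bp upstream of ceh-39 (WBGene00000460, chrX:1853874-1856172). That summit lay on the tRNA gene T26C11.t1 (WBGene00023152, plus strand, chrX:1858819-1858890), and the nearest protein-coding 5' end, 1878 bp away, was that of T26C11.8. Its signal was 157 in the main list, rank 572 of 2415. It was 81.8 in replicate 1 and 77.7 in replicate 2, both with a score of 1000, and the ratio was 1.05. The summits of the 3 lists lay within 9 bp of each other. In the main list, 213 of 2415 summits (8.82%) were within 150 bp of a tRNA gene, with a median signal of 145, and 90 of these were stronger than this peak.

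The sequence of this peak is shown to set it beside that of ceh-38. It is chrX:1858699-1858988 on the plus strand, 290 bases from the same RefSeq genome, with the tRNA gene in capitals.
tRNA gene peak: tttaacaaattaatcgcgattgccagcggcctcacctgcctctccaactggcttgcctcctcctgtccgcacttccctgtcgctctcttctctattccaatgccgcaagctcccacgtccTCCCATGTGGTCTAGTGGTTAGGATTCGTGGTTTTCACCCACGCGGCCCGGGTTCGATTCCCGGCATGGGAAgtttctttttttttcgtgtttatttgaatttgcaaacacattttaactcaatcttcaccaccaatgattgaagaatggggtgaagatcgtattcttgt

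It contained neither ATTGAT nor ATCGAT, and the GC content within 50 bp of its summit was 58.4%, against 41.6% at the ceh-38 summit and a median of 41.6% over the main list. Of the 213 summits near tRNA genes, 4.69% had either word within 50 bp, against 72.3% of the other 2202 summits. That these letters are missing says nothing about which factor was bound there.

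The other peak of the cluster, chrX:1853615-1853904, belonged to the windows of both ceh-21 and ceh-39. Its summit at 1853760 lay in the 5' UTR of T26C11.9 (WBGene00194679), an uncharacterised gene between them, 89 bp downstream of its 5' end. This is 1024 bp upstream of the 5' end of ceh-21 (WBGene00000444, chrX:1848779-1852736) and 114 bp beyond the 3' end of ceh-39. The signal was 93.6 in the main list, rank 1478 of 2415, with a score of 1000. In replicate 1's list it was 55.3 with a score of 858 and a summit at 1853807. In replicate 2 it stayed under the threshold, with a ranked entry of signal 33.9 and score 124. The ratio of 1.63 lay within the 5th to 95th percentile range of main-list peaks. The conservative list held the peak with a score of 939. Of the thresholded lists, that of replicate 2 alone had no summit in the ceh-21 window.

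A single word match lay in this peak, 62 bp after the summit. It is shown as 30 bases of the UTR, chrX:1853810-1853839 on the plus strand, with the match in capitals.
T26C11.9 site: taacccccaaaaATCAATggtatgcaaaag

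The third gene of the cluster, ceh-41 (WBGene00000462, chrX:1846608-1848675), had no summit in any of the 4 thresholded lists. The T26C11.9 summit was 5085 bp from its body, just outside the 5-kb window. Its best pooled ranked entry had a score of 183 and a signal of 43.7, with the summit in the coding sequence at chrX:1847209. The best entry of replicate 1 had a score of 93 and a signal of 18.98, and that of replicate 2 a score of 138 and a signal of 26.3, both in the intron of ceh-21 and not at the pooled position. Of all protein-coding genes, 57% had a best score at least as high as 183.

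ceh-49 (WBGene00017538, minus strand, chrV:6118333-6120206) came nearest to the threshold among the genes without a main-list peak. Its best pooled ranked entry had a score of 680 and a signal of 84.3, with the summit at chrV:6121536. This is 1330 bp upstream of ceh-49, in the 3' UTR of ttn-1, a titin gene on the same strand. In the ranked list that compares the 2 replicates the same entry scored 1000, and the conservative list therefore held it. Replicate 1's ranked entry there had a signal of 40.8 and a score of 512, and replicate 2's a signal of 48.3 and a score of 39. Neither replicate's own list held it, and the signal ratio was 0.844. Of all protein-coding genes, 26.4% had a best pooled score of at least 680, and 19.2% a highest signal of at least 84.3.

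The ttn-1 entry held 2 overlapping ATTGAT matches, which began 16 and 20 bp after the summit. They are shown as 30 bases, chrV:6121542-6121571 on the plus strand, with the matches in capitals.
ttn-1 site: ataaaaaagtATTGATTGATttgaatttat

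ceh-48 (WBGene00015934, plus strand, chrIV:6812108-6815607), a neuronal member of the family, had the lowest best score of the 6 genes in the pooled ranked list, though not in the other ranked lists. Its best pooled ranked entry had a score of 103 and a signal of 36.8, at chrIV:6818208, which is 2601 bp beyond the 3' end in intergenic DNA. The highest signal in its window was 47.5, at chrIV:6817071 in the coding sequence of C17H12.5, with a score of 64 in the pooled ranked list and 523 in the list that compares the replicates. Replicate 1's best score was 125, with a signal of 31.3, and replicate 2's was 102, with a signal of 26.9. Of all protein-coding genes, 73.5% had a best pooled score of at least 103, and the nearest main-list summit was 55429 bp from the gene.

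Ordered by the highest pooled signal in the window, the genes were ceh-38 at 713, ceh-39 at 157, ceh-21 at 93.6, ceh-49 at 84.3, ceh-48 at 47.5 and ceh-41 at 47.5. The median over all protein-coding genes was 51.1. In the pooled ranked list, a signal of at least 713 was found at 57 genes (0.285%), of at least 157 at 6.89% and of at least 93.6 at 16.1%. That list holds strong entries that the main list lacks. In the main list, 30 of the 4428 genes with a summit had a stronger one than ceh-38. The values for ceh-48 and ceh-41 were reached by 58.1% and 58.2% of genes. In replicate 1 the values of ceh-38 and ceh-39 were reached by 0.315% and 7.52% of genes, and in replicate 2 by 0.275% and 6.4%. Neighbouring genes share peaks, so these shares count genes and not separate peaks. The ceh-21 and ceh-49 values are not ordered by the replicates, since ceh-21 was higher in replicate 1, at 55.3 against 40.8, and ceh-49 in replicate 2, at 48.3 against 33.9.

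**Figure D3:**
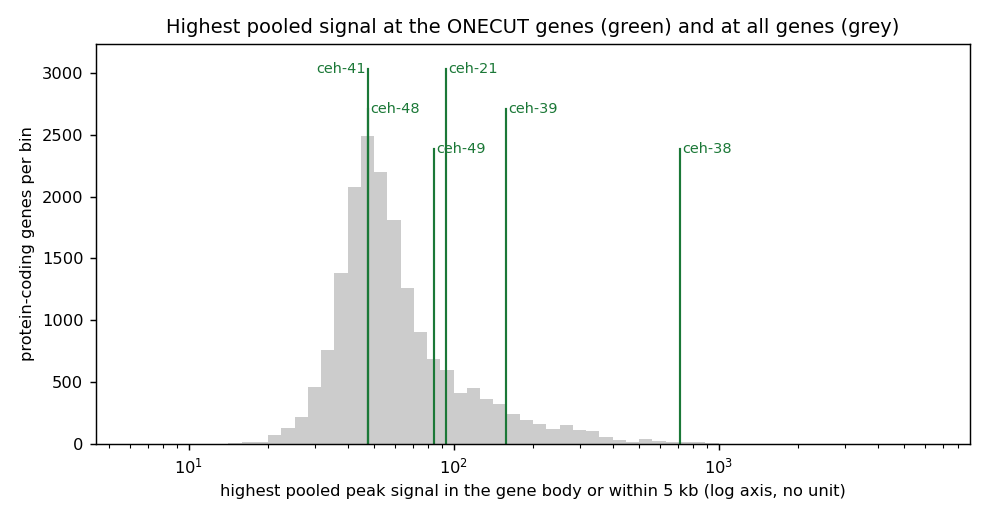
Number of protein-coding genes (grey bars) by the highest pooled ranked signal in the gene body or within 5 kb (log axis, no unit), with the 6 ONECUT genes as green lines; 1958 genes with no entry are not drawn. ceh-41 and ceh-48 lie near the median of 51.1, ceh-49, ceh-21 and ceh-39 above it, and ceh-38 at 713 in the far tail.

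Main-list summits within 1000 bp of a 5' end were found for 1437 protein-coding genes, and 3 of these had a stronger one than ceh-38. The 4 genes with the most similar signal, among peaks found in both replicates, were malt-1, K12H4.5, josd-1 and K01G5.10. malt-1 shares the ceh-38 peak. K12H4.5 had a signal of 670, 529 bp upstream of its 5' end and with no word match within 100 bp of the summit. josd-1, a ubiquitin hydrolase gene, had 784, with the summit in its intron 327 bp after the 5' end and 11 matches within 100 bp. K01G5.10 had 796, 675 bp upstream and with 1 match. Its peak is also that of tasp-1, 110 bp upstream of the tasp-1 5' end, so tasp-1 tied with it and was left out by order of name. The replicate signals of ceh-38 were 359 and 348, against 445 and 229 at K12H4.5, 395 and 364 at josd-1, and 417 and 375 at K01G5.10 in replicates 1 and 2.

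Other homeobox genes give a frame for the family. Of 73 listed genes of other classes, 72 were found by name in the annotation, and 8 (11.1%) had a main-list summit in the window, against 3 of 6 ONECUT genes and 22.2% of all genes. None of the 72 had one in the main list and both replicate lists, against ceh-38 and ceh-39 of the ONECUT genes and 11.1% of all genes. For ceh-39 this rested on the tRNA-gene peak alone. Among the 72, ceh-19 had a summit in both replicate lists. A main-list peak overlapped the ceh-19 window, but its summit lay outside the 5-kb limit. The 6 with the highest signal were ceh-24 at 118, ceh-2 at 94.0, ttx-1 at 93.1, hmbx-1 at 92.6, ceh-5 at 91.7 and unc-62 at 87.4. All 6 were lower than ceh-38 and ceh-39, and the 5 below ceh-24 lay between 87.4 and 94.0, around the ceh-21 value of 93.6. The ceh-39 value is that of the tRNA-gene peak. Its other main-list peak is the one shared with ceh-21, which was below ceh-24.

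The strongest summit of ttx-1, an OTX gene of the thermosensory AFD neurons, was 429 bp upstream of an own 5' end. That of unc-62, the worm Meis gene, was 108 bp upstream of one. At ceh-2 the summit, 732 bp upstream, was at a tRNA gene. At ceh-24 and ceh-5 it lay 4719 and 4804 bp upstream, nearer to the 5' ends of swan-1 and eat-16. None of the 6 HOX genes, 7 LIM genes, 3 POU genes or 4 SINE genes had a main-list summit, nor had dve-1, the CUT-class gene outside ONECUT that was matched.

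**Figure D4:**
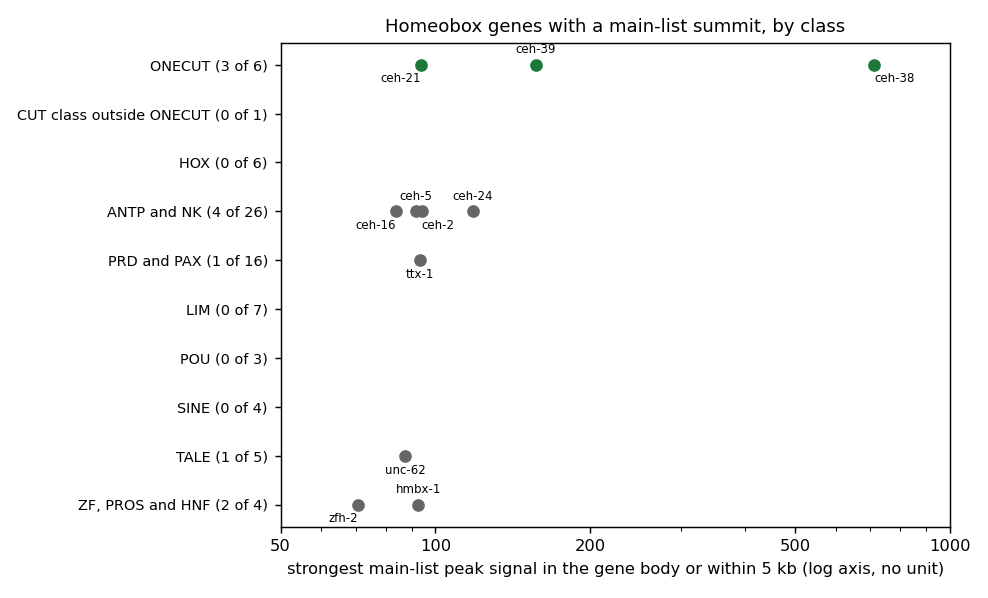
Strongest main-list signal (log axis, no unit) of each homeobox gene with a summit in the gene body or within 5 kb, by class, with the number of genes that had one and the number examined in brackets; ONECUT genes are green. ceh-38 at 713 and ceh-39 at 157 lie to the right of every other homeobox gene, of which the highest is ceh-24 at 118. The ceh-39 value is that of the peak on a tRNA gene 2672 bp upstream, and its other main-list peak, at T26C11.9, had 93.6.

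Because ceh-39 is an X signal element, the genes of that pathway were listed with their own windows. Of 9 matched genes, 4 (44.4%) had a main-list summit, against 22.2% of all genes. This list was chosen with earlier results of these data known, so the count is not read as an excess. Of the 4 peaks, that at xol-1 alone was in both replicate lists. Over all genes, 11.1% had a summit in the main list and both replicate lists. The strongest of the 4 was at xol-1, the switch gene that the X signal elements repress. Its summit, at chrX:8036415, lay 4898 bp upstream in intergenic DNA, with a signal of 755 in the main list, 404 in replicate 1 and 352 in replicate 2. The matching values of ceh-38 were 713, 359 and 348. sea-2, an autosomal gene that acts on xol-1, had 108 in an intron and was in replicate 1's list only, at 57.3. her-1, which encodes the secreted ligand of TRA-2, had 94.8 in an intron of the overlapping gene xbx-6 and was in replicate 1's list only, at 59.7. sdc-1, a gene of sex determination and dosage compensation, had 82.3 at 513 bp upstream, again in replicate 1's list only, at 55.6. fox-1, sex-1, sea-1, sdc-2 and sdc-3 had none.

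Since CUT genes also act on pan-neuronal genes, 17 of those were examined, and 7 (41.2%) had a main-list summit, against 22.2% of all genes. This list too was chosen with earlier results of these data known, so the count is not read as an excess. The strongest signals of the 7 ran from 77.9 at egl-21, a peptide-processing enzyme gene, to 239 at snb-1, the synaptobrevin gene. All 7 were below ceh-38, and 3 of them, snb-1, unc-104 and egl-3, were above ceh-39, whose value is that of the tRNA-gene peak. The unc-104 summit lay in an exon of another gene, WBGene00023260, inside an unc-104 intron. The peaks of snb-1, unc-104 and egl-3 were in both replicate lists, and the others of the 7 were in replicate 1's list only or in neither. Over all genes, 11.1% had a summit in the main list and both replicate lists.

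In the main list, 1601 of 2415 peaks (66.3%; exact 95% interval 64.4% to 68.2%, counting error only) had ATTGAT or ATCGAT within 50 bp of the summit. Windows 300 to 400 bp to the left and right had 21% and 21.2%. The words came from an earlier count under these same peaks, so this difference is a description and tests nothing. ATCGAT was present within 50 bp of 50.4% of summits and ATTGAT of 34.3%, each counted whether or not the other was there. Of the 5 peaks at ONECUT genes, those of ceh-38 and ttn-1 had a match within 50 bp, and those of T26C11.9, tra-2 and the tRNA gene had none. ATCGAT was found only in the ceh-38 peak among the 5. The promoters of the 6 genes, from 250 bp before to 50 bp after the outermost 5' end, held neither word, against 7742 of 19973 (38.8%) over all protein-coding genes. For ceh-38 that window ends before the peak summit, so it does not include the 4 matches.

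**Figure D5:**
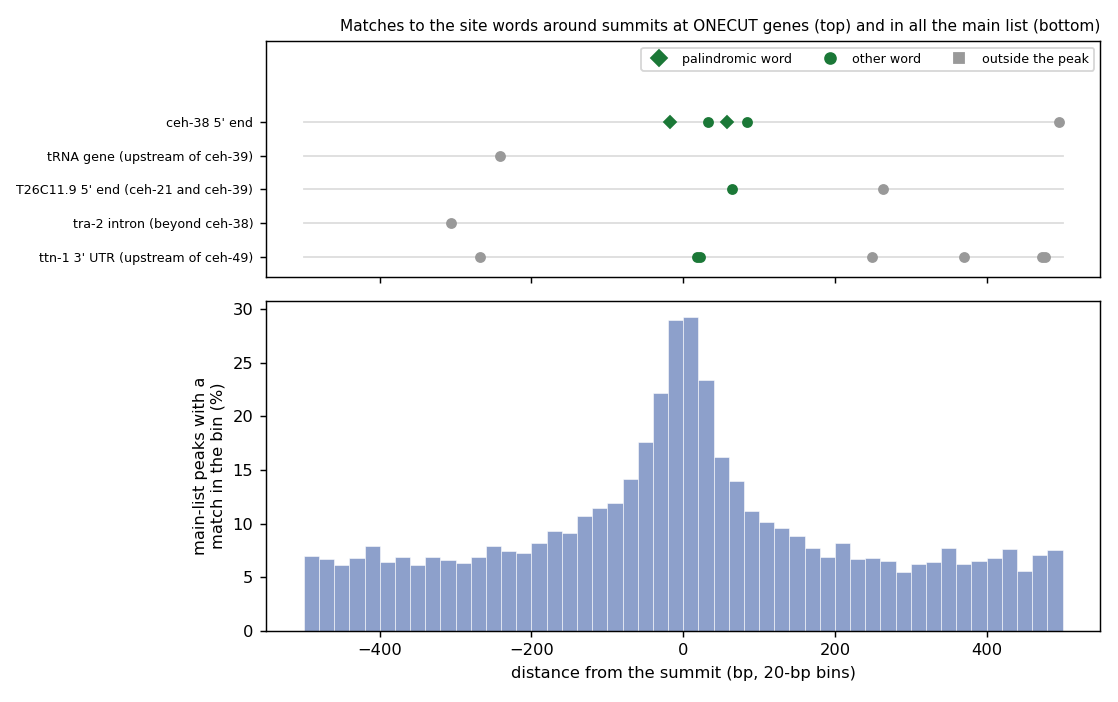
Top, positions of ATTGAT-type (circles) and palindromic ATCGAT (diamonds) matches against the distance from the summit in bp at the 5 peaks of the ONECUT genes, green inside the peak and grey outside; bottom, percentage of the 2415 main-list peaks with a match in each 20-bp bin. Matches over the main list crowd around the summit, and the 4 matches of ceh-38 lie from 20 bp before to 82 bp after its summit.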

How the data were processed

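Peak lists of T22C8.4-eGFP chromatin immunoprecipitation from 2 replicates of 1 group were used as deposited: 4 ranked and 4 thresholded lists on ce11. Neither an aligner nor a caller is given in the sources used here. Per the deposited notes, peak calling used a control alignment, not analysed here. Lists were made per replicate, on pooled reads (main list) and by comparing the replicates (conservative list). The signal of each peak was deposited by the authors without a unit and was not rescaled. The deposited score is the authors' transform of the IDR, capped at 1000; every thresholded peak has at least 830. Values of -log10 q-value, and of -log10 global IDR in ranked lists, were also deposited and used unchanged. The main list lacks 163 pooled ranked entries with a score of 830 or more. Depth per sample is unknown, so intervals cover the counting of peaks only.

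Genes came from Ensembl release 115 and sequence from RefSeq, both on WBcel235. Python 3.11.15, numpy 2.4.6 and scipy 1.17.1 were used. Summits were given to every gene within 5 kb. A peak was followed between lists by an overlap of at least 1 bp, taking the highest signal. The genes, the comparison lists and the words ATTGAT and ATCGAT were chosen with earlier results of these data known. Named were the 6 genes, the 4 genes nearest to ceh-38 in signal (within 1000 bp of a 5' end, peak in both replicates), the 6 other homeobox genes with the highest signal, genes of the xol-1 pathway or CUT class with a summit, and the neighbours nearest to the summits; egl-21, snb-1, unc-104 and egl-3 were named after their values were seen. The genes ceh-44 and sex-2 were not found by name and were not analysed here. No test was run, since 1 group was measured and the genes were chosen on it. Window assignment and word search were tested on simulated data.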

Additional observations from a re-analysis of the deposited data

How the results depend on the processing

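The ONECUT count of 3 stayed between 2 and 4 under 9 of 11 alternatives, and ceh-38 was held in all of them. It was 1, ceh-38 alone, with the gene body only and with each summit given to the nearest protein-coding 5' end; that rule and the removal of tRNA-gene summits, which left 3 genes, were chosen after seeing the data. Each replicate's own list gave 2 to 3 genes, ceh-21 being lost without replicate 1. A 10-kb flank or any overlap of 1 bp added ceh-41, and a score of 540 or more, or the conservative list, added ceh-49. The share of all genes, 22.2%, became 13.5% to 16.4% in single replicates, 4.75% with gene bodies, 14.3% with 2 kb, 32.8% with 10 kb, 30.7% with scores of 540 or more and 8.95% with nearest 5' ends. The 8 other homeobox genes became 2 to 5 in single replicates, 16 with scores of 540 or more, 4 with gene bodies, 5 with 2 kb, 17 with 10 kb and 5 with nearest 5' ends. The ceh-38 distance of 34 bp was 35 to 37 bp in single replicates. The share of summits with either word was 51.3% within 25 bp and 74.6% within 100 bp. Of 30 best scores recomputed for the 6 genes, 11 were counted as moved, none of them at ceh-38 or ceh-39. Some of the 11 changed by less than the 2 replicate scores of the gene differed. The ceh-41 score went from 183 in the pooled ranked list to 145 in the ranked list that compares the replicates. Its best scores were 93 in replicate 1 and 138 in replicate 2. The cause of these changes was not tested beyond what each setting does by construction. No paired analysis was possible because there is 1 group. Depth is unknown, and the 2 replicates limit the precision of each value.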

Other observations

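Of the 20 strongest main-list peaks, 4 lay within 1000 bp of the 5' end of a protein-coding gene. These were the peaks at ceh-38 (34 bp inside), tasp-1 (110 bp upstream), josd-1 (327 bp inside) and K12H4.5 (529 bp upstream). The xol-1 peak ranked 12 in the main list, next to ceh-38 at 13. In single replicates, the homeobox gene ceh-19 had a summit in the window in both lists but none in the main list. A main-list peak did overlap that window, with its summit outside the 5-kb limit.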
